A study of Homo sapiens with 18 samples.

Results

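Amino acid transporter genes were followed in H1, an established human embryonic stem cell line, through differentiation and through depletion of KBTBD8. Members were all genes whose array annotation symbol starts with SLC1A, SLC3A, SLC7A, SLC36A, SLC38A or SLC43A on a probe set that carries a single symbol. They numbered 41 of the 18417 genes so defined on the array. The families held 7 SLC1A, 2 SLC3A, 14 SLC7A, 4 SLC36A, 12 SLC38A and 2 SLC43A symbols. The symbol rule also takes in SLC7A6OS, which is not a carrier but a separate gene named for its place opposite SLC7A6. SLC43A3 lay only on a probe set shared with PRG2 and was not a member.

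RNA was hybridised to 18 Affymetrix Human Gene 1.0 ST arrays, with 3 arrays in each of 6 groups. The groups combine 2 states with 3 treatments, all of them in H1. Pluripotent cells grew feeder-free on Matrigel in mTeSR1, and embryoid bodies, aggregates in which the cells differentiate, were formed in AggreWell plates in APEL medium for 6 days. Cells of either state were untransduced, carried a lentiviral control shRNA, or carried a lentiviral shRNA against KBTBD8, a substrate adaptor of the ubiquitin ligase CUL3. The treated groups thus all carry a lentivirus, and the pluripotent and embryoid body states also differ in medium. The labels do not give the number of hairpins or of separate cultures, so p-values measure the spread between arrays, which may be technical.

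Amino acid carriers of these families move amino acids across the plasma membrane and the lysosomal membrane. Several SLC7A proteins work only as light chains joined to a heavy chain, SLC3A2 or SLC3A1, whereas the cationic carriers SLC7A1 to SLC7A3 work alone. The SLC1A carriers take up glutamate or exchange small neutral amino acids, the SLC38A carriers bring in glutamine and alanine with sodium, some SLC36A carriers are coupled to protons, and the SLC43A carriers pass large neutral amino acids. Leucine, arginine and glutamine that enter this way are sensed by mTORC1 at the lysosome, and the transcription factor ATF4 raises many carrier transcripts when amino acids are short or when the cell is under other stress.

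Before any result, 2 arrays had to be set apart. Across all genes tested, 16 of the 18 arrays correlated best with the mean of their own group. The pluripotent KBTBD8 shRNA array 2 correlated at 0.908 with its own group and at 0.990 with the embryoid bodies under the same shRNA. Embryoid body KBTBD8 shRNA array 2 correlated at 0.914 with its own group and at 0.993 with the pluripotent cells under the same shRNA. The labels were kept and nothing was exchanged, so the KBTBD8 shRNA groups have 2 arrays each in the main results. Values from all 18 arrays as labelled are given beside some of these results.

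The values are log2 intensities, one unit being a doubling, and a level compares only with the same gene on other arrays. Array medians lay between 5.85 and 5.95 without lentivirus and between 5.97 and 6.12 with it. KBTBD8 averaged 6.84 in pluripotent cells with control shRNA and 5.04 with its shRNA, a difference of −1.79 ± 0.26 (limma, adjusted p = 2.8e-04), and 4.76 and 4.76 in the embryoid bodies, where the difference was 0.01. For KBTBD8, all 8 embryoid body arrays and both pluripotent KBTBD8 shRNA arrays of the main results lay below the 40th percentile of their array. The pluripotent difference is thus measured against the low range, and the embryoid body value does not show whether knockdown held. KBTBD8 met the rule for testing, above this percentile on 3 or more arrays, only through pluripotent arrays without its shRNA, where it is high. Its difference and adjusted p are therefore given as a description. The exact permutation test (two-sided) of the pluripotent difference gave p = 0.1, the smallest possible with 2 against 3 arrays. Of 7 pluripotency markers the array mean was 9.96 to 10.50 in pluripotent groups and 7.25 to 8.99 in embryoid bodies, and of 5 neural plate markers 4.65 to 5.11 and 7.81 to 9.24. The pluripotency marker LIN28A was not lower in embryoid bodies with either shRNA. In pluripotent cells and embryoid bodies it averaged 11.44 and 11.56 with control shRNA, 11.34 and 11.54 with KBTBD8 shRNA, and 11.16 and 10.98 untransduced. Markers of endothelium and blood stayed below the 40th percentile of the arrays in 4 or 5 of 5 cases in every group. The array means of endoderm and yolk sac markers (AFP, APOA2, TTR, FOXA2 and SOX17) were highest with control shRNA. They were 5.01 to 5.08, 6.12 to 6.36 and 5.42 to 5.45 in untransduced, control shRNA and KBTBD8 shRNA pluripotent cells, and 4.80 to 4.96, 6.93 to 7.08 and 5.31 to 5.52 in the embryoid bodies. In embryoid bodies FOXA2 and SOX17 were not highest with control shRNA, at 5.85 and 5.63 against 5.90 and 5.73 with KBTBD8 shRNA.

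Testing was limited to genes that exceeded the 40th percentile of their array on 3 or more arrays, which 32 of the 41 members and 14209 genes in all did. The untested members were SLC1A2, SLC1A7, SLC3A1, SLC7A9, SLC7A13, SLC7A14, SLC36A2, SLC36A3 and SLC38A11. Their levels over the 18 arrays ran from 2.60 for the lowest array of SLC7A13 to 5.43 for the highest of SLC7A9, while the 40th percentile of the arrays lay between 5.26 and 5.59. SLC3A1 and SLC7A9, the heavy and light chain of the cystine and dibasic amino acid carrier of kidney and gut, were thus both in this low range. In a fit without the filter, SLC1A2, a glutamate carrier of glia, was 0.63 higher in untransduced embryoid bodies than in pluripotent cells (limma, adjusted p = 0.0015), at levels that stayed below 5.26.

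**Figure D1:**
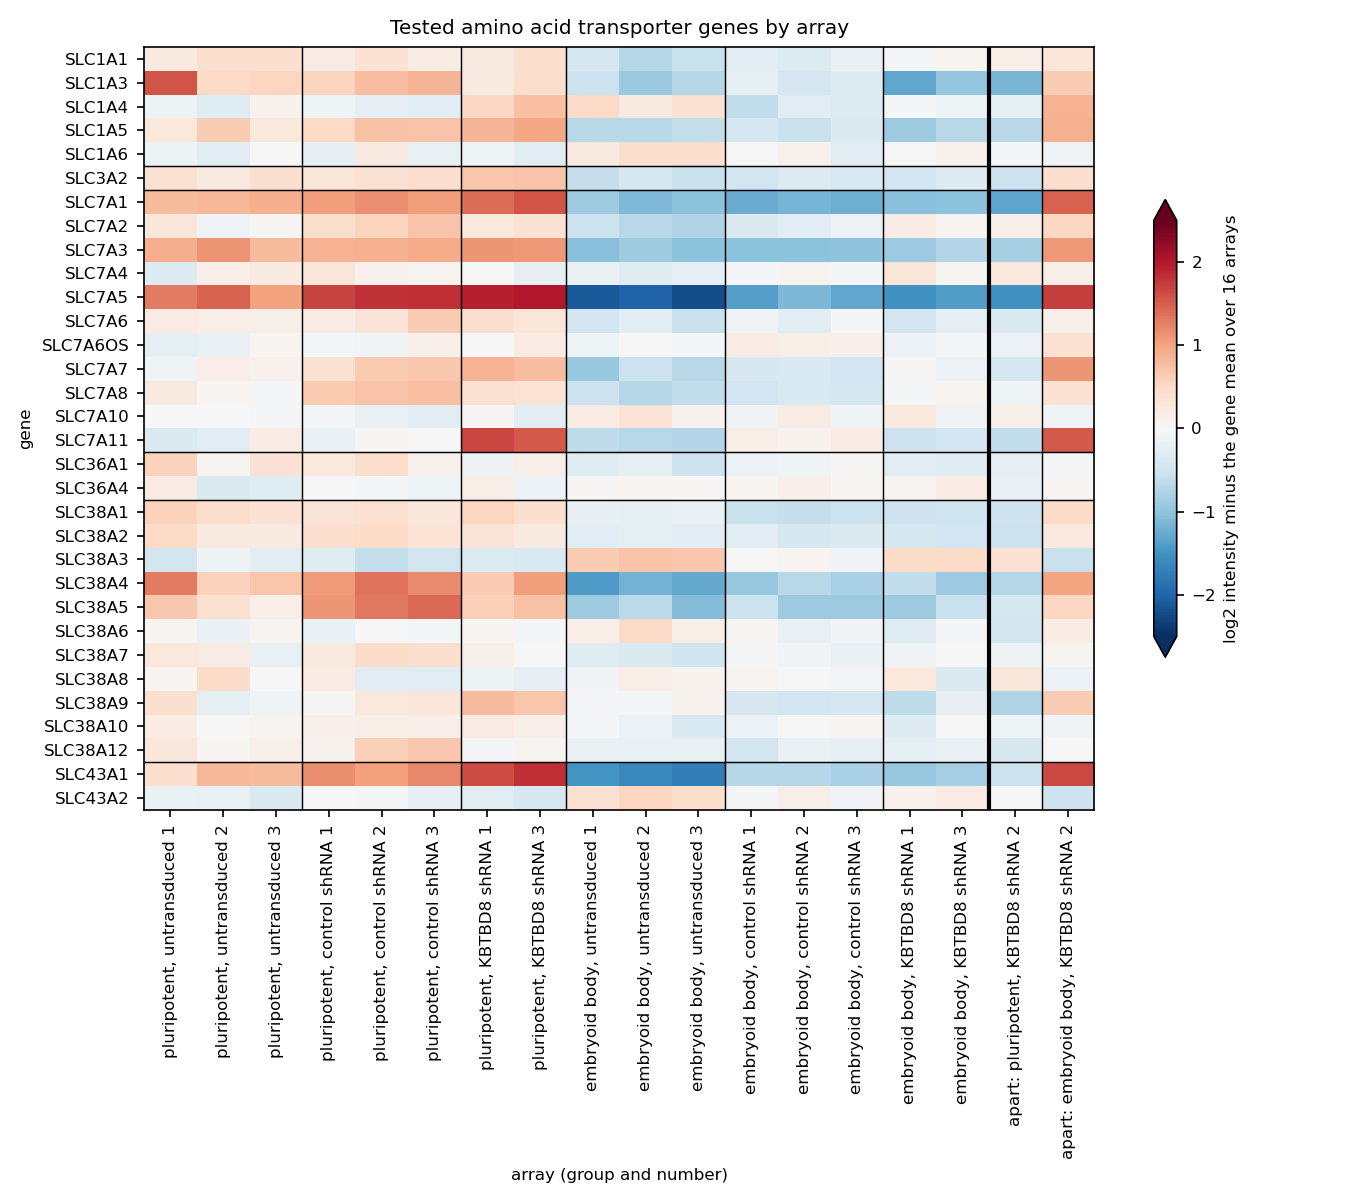
Log2 intensity minus the gene's mean over 16 arrays (colour), for the 32 tested members (rows, by family) on each array (columns, by group and number). SLC7A5, SLC43A1, SLC7A1, SLC7A3 and SLC38A4 were high in the pluripotent groups and low in embryoid bodies, and both arrays set apart, at the right of the heavy line, showed the colours of the opposite state.

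Carrier transcripts were mostly lower after differentiation. In untransduced cells 26 of the 32 tested members passed an adjusted p of 0.05 between embryoid bodies and pluripotent cells, 21 lower and 5 higher, against 52.2% of all genes tested, 26.3% lower and 25.8% higher. The median member differed by −0.58 and the median gene by −0.04. With control shRNA 20 fell and 1 rose, where 48.3% of all genes passed, 25.2% lower and 23.1% higher. With KBTBD8 shRNA 17 fell and 2 rose, where 38.5% of all genes passed, 21.1% lower and 17.3% higher. On all 18 arrays as labelled, 0 of all 14209 genes passed in this last comparison in limma, and 763 genes, none of them a member, had an unadjusted p under 0.05. By family, 8 of 11 tested SLC7A members, 7 of 11 SLC38A, 3 of 5 SLC1A, 1 of 2 SLC36A, 1 of 2 SLC43A and SLC3A2 fell in untransduced cells, and 2 SLC1A, 2 SLC38A and 1 SLC43A member rose. In bulk samples, fewer cells that express a gene and less RNA per cell cannot be told apart.

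The same 14 members were lower in embryoid bodies under all 3 treatments, and 12.2% of all genes tested were. They were SLC3A2, SLC7A1, SLC7A3, SLC7A5, SLC7A6, SLC7A7, SLC7A8, SLC1A3, SLC1A5, SLC38A1, SLC38A2, SLC38A4, SLC38A5 and SLC43A1. Of these SLC38A4 passed the filter on low values only through pluripotent arrays, where it is high, so it had to differ and is given as a description. SLC38A3 alone of the tested members was higher under all 3, as were 10.2% of all genes. SLC36A4, SLC38A8, SLC7A4, SLC7A10 and SLC7A6OS passed under none, as did 29.9% of all genes. SLC1A4, a carrier of alanine, serine and cysteine, was called in opposite directions, at 0.48 in untransduced cells and −0.71 with KBTBD8 shRNA. Of all 14209 genes tested, 444 had opposite calls among the treatments. SLC1A4 exceeded the 40th percentile on 4 of 8 pluripotent and 5 of 8 embryoid body arrays of the main results. Its differences are thus measured near the low range.

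**Figure D2:**
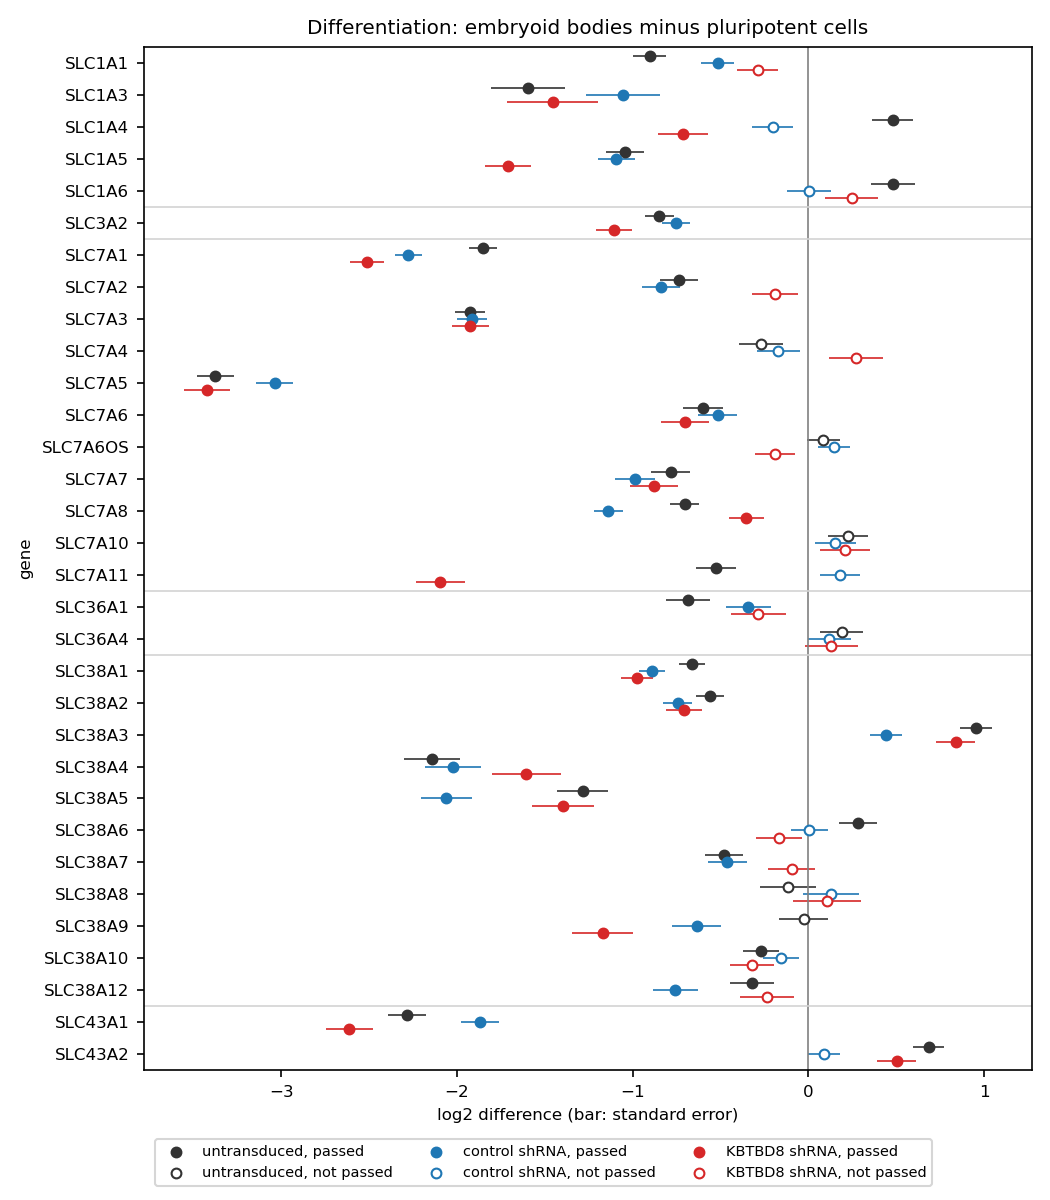
Log2 difference of embryoid bodies minus pluripotent cells for each tested member (rows), with its standard error (bar) and filled where the adjusted p was under 0.05, in untransduced (black), control shRNA (blue) and KBTBD8 shRNA cells (red). SLC7A5 lies farthest left, between −3.42 and −3.04, and SLC38A3 lies right of 0 in every treatment.

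The largest fall was that of SLC7A5, also called LAT1, the light chain that exchanges intracellular glutamine for leucine and other large neutral amino acids. In untransduced cells SLC7A5 read 10.36, 10.52 and 10.06 on the pluripotent arrays and 6.94, 7.03 and 6.84 on the embryoid body arrays. With control shRNA it read, with pluripotent arrays first here and in what follows, 10.73, 10.86 and 10.88 against 7.68, 7.92 and 7.75, and with KBTBD8 shRNA 10.99 and 11.04 against 7.54 and 7.66. The pluripotent and embryoid body arrays did not overlap under any treatment. Of the 32 tested members 27, 25 and 27 did not overlap in untransduced, control shRNA and KBTBD8 shRNA cells, and the share over all genes was not counted. The arrays set apart read 7.54 under the pluripotent label and 10.77 under the embryoid body label, each near the levels of the other state. SLC7A5 was 10.4-fold lower in untransduced embryoid bodies (−3.37 ± 0.11, SE, adjusted p = 5.7e-13 in limma), 8.21-fold lower with control shRNA (−3.04 ± 0.11) and 10.7-fold lower with KBTBD8 shRNA (−3.42 ± 0.13). Among all genes tested these were the 32nd, 9th and 10th largest decreases. On all 18 arrays the last value was −1.20.

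SLC3A2, the heavy chain CD98 that carries SLC7A5 and other light chains to the plasma membrane, was lower as well, by a smaller difference. Its pluripotent arrays read 10.42, 10.28 and 10.45 untransduced, 10.34, 10.41 and 10.47 with control shRNA and 10.74 and 10.76 with KBTBD8 shRNA. Its embryoid body arrays read 9.47, 9.64 and 9.49 untransduced, 9.57, 9.72 and 9.66 with control shRNA and 9.56 and 9.72 with KBTBD8 shRNA, with 9.50 and 10.44 on the pluripotent and embryoid body arrays set apart. No embryoid body array of the main results reached a pluripotent one. The differences were −0.85 ± 0.08, −0.75 ± 0.08 and −1.11 ± 0.10, each past the threshold in limma, with adjusted p of 2.8e-07, 1.3e-06 and 2.9e-07. On 18 arrays as labelled the last was −0.42 (adjusted p = 0.79).

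SLC43A1, or LAT3, a sodium-independent carrier of large neutral amino acids that needs no heavy chain, was also lower under every treatment, and its fall was next in size to that of SLC7A5 in untransduced and KBTBD8 shRNA cells but not with control shRNA. SLC43A1 read 7.73, 8.14 and 8.12 in untransduced pluripotent cells and 5.84, 5.70 and 5.59 in the embryoid bodies. Its values were 8.47, 8.34 and 8.52 against 6.61, 6.61 and 6.51 with control shRNA, and 8.94 and 9.14 against 6.38 and 6.48 with KBTBD8 shRNA. The states did not overlap, and the arrays set apart read 6.79 under the pluripotent label and 8.97 under the embryoid body label. The differences were −2.28 ± 0.11, −1.87 ± 0.11 and −2.61 ± 0.13. Its relative SLC43A2, or LAT4, did not fall: it was 0.69 in untransduced cells and 0.50 with KBTBD8 shRNA, both past the threshold, and 0.09 with control shRNA, which did not pass.

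Promoter sequence was set beside these values because the E-box CACGTG, the word bound by MYC and by MITF and TFE family factors, occurs in several carrier promoters. RefSeq start sites (GRCh38.p14) matched 33 of the 41 members, with 55 starts in all, and the 250 bases before each start were searched on both strands. SLC7A2, SLC7A3, SLC7A4, SLC7A11, SLC7A13, SLC1A2, SLC3A1 and SLC38A3 were not matched. CACGTG occurred before 8 of the 55 starts (14.5%), against 6.34% of all 35116 starts, in SLC1A5, SLC1A7, SLC36A1, SLC38A5, SLC43A1, SLC7A5, SLC7A7 and SLC7A8. The ATF4 word TGATGNAA occurred before 2 starts (3.64%, all starts 3.14%), those of SLC1A3 and SLC1A5, and the antioxidant core TGANNNNGC before 27 (49.1%, all starts 35.2%). These words can overlap each other, starts of a gene can share bases, and a match in letters is not a binding site. Shown here, 5′ to 3′ and ending at the base before the most upstream start, are the promoters of the 3 members that fell under all 3 treatments, passed with a difference of 1 or more in a comparison, and hold the E-box (capitals) before that start. They lie on the minus strand at chr16:87869508-87869757 for SLC7A5, chr11:57515703-57515952 for SLC43A1 and chrX:48470261-48470510 for SLC38A5, with the E-box 130, 112 and 206 bases before the start. SLC1A5 and SLC7A8 also fell under all 3 treatments and passed with a difference of 1 or more. They hold the E-box only before another start, so their promoters are not shown. Whether the E-box goes with a fall was not tested.
SLC7A5: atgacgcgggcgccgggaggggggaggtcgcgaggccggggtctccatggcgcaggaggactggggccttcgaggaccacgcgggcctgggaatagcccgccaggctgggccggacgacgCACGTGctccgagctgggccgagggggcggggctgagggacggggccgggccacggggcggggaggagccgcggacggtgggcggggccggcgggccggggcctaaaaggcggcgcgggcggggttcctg
SLC43A1: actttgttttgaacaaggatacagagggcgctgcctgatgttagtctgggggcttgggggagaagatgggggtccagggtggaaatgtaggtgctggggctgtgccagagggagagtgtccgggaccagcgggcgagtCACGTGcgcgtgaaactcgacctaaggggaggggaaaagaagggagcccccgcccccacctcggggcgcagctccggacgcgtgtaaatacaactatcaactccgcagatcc
SLC38A5: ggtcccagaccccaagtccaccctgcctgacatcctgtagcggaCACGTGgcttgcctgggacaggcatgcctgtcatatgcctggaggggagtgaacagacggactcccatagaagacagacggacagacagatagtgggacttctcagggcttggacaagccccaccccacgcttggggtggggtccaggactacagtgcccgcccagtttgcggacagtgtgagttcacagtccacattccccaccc

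The cationic carriers SLC7A1 and SLC7A3, which bring arginine and lysine into the cell, were also lower in every treatment. SLC7A1 read 8.91, 8.95 and 9.05 in untransduced pluripotent cells and 7.24, 7.03 and 7.10 in embryoid bodies. With control shRNA it read 9.17, 9.27 and 9.18 against 6.89, 6.98 and 6.92, and with KBTBD8 shRNA 9.52 and 9.70 against 7.08 and 7.11. Its states did not overlap, and the differences were −1.85 ± 0.08, −2.28 ± 0.08 and −2.51 ± 0.10. SLC7A3 read 10.99, 11.19 and 10.86 against 9.03, 9.18 and 9.05 untransduced, 10.95, 10.96 and 11.00 against 9.06, 9.04 and 9.07 with control shRNA, and 11.19 and 11.17 against 9.17 and 9.34 with KBTBD8 shRNA. Its difference was nearly the same in size under each treatment, at −1.93 ± 0.09, −1.91 ± 0.09 and −1.92 ± 0.10. The arrays set apart read 6.81 and 9.60 for SLC7A1 and 9.24 and 11.16 for SLC7A3 under their pluripotent and embryoid body labels. SLC7A2, another carrier of this kind, fell by less, at −0.73 untransduced and −0.84 with control shRNA, and did not pass with KBTBD8 shRNA (−0.19).

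Among the other light chains SLC7A8, or LAT2, which exchanges neutral amino acids, read 10.50, 10.31 and 10.24 against 9.74, 9.55 and 9.65 in untransduced pluripotent cells and embryoid bodies. It read 10.91, 10.98 and 11.02 against 9.79, 9.87 and 9.82 with control shRNA and 10.65 and 10.61 against 10.22 and 10.34 with KBTBD8 shRNA, and 10.16 and 10.62 on the pluripotent and embryoid body arrays set apart. The states did not overlap, and the differences were −0.70 ± 0.08, −1.14 ± 0.08 and −0.35 ± 0.10. SLC7A6 and SLC7A7, which exchange cationic for neutral amino acids, fell by 0.51 to 0.70 and by 0.78 to 0.99 over the treatments. SLC7A7 exceeded the 40th percentile on all 8 pluripotent arrays of the main results but on 2 of the 8 embryoid body arrays, so it passed the filter mainly through the state where it is high. SLC7A10, a light chain for small neutral amino acids, had differences of 0.22, 0.15 and 0.21, none past the threshold.

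SLC7A11, or xCT, the light chain that imports cystine in exchange for glutamate and so feeds glutathione synthesis, did not follow this pattern across treatments. Its untransduced arrays read 7.96, 8.04 and 8.51 in pluripotent cells and 7.70, 7.64 and 7.60 in embryoid bodies. With control shRNA they read 8.16, 8.36 and 8.33 against 8.47, 8.42 and 8.50, and with KBTBD8 shRNA 9.99 and 9.86 against 7.81 and 7.86. The pluripotent KBTBD8 shRNA arrays stood above all others of the main results, and the array labelled embryoid body KBTBD8 shRNA 2 read 9.87 while pluripotent KBTBD8 shRNA 2 read 7.71. Differentiation gave −0.53 ± 0.11 in untransduced cells (limma, adjusted p = 0.0011), 0.18 ± 0.11 with control shRNA, which did not pass, and −2.10 ± 0.14 with KBTBD8 shRNA (adjusted p = 9.5e-09). On 18 arrays as labelled the last value was −0.68 (adjusted p = 0.81).

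**Figure D3:**
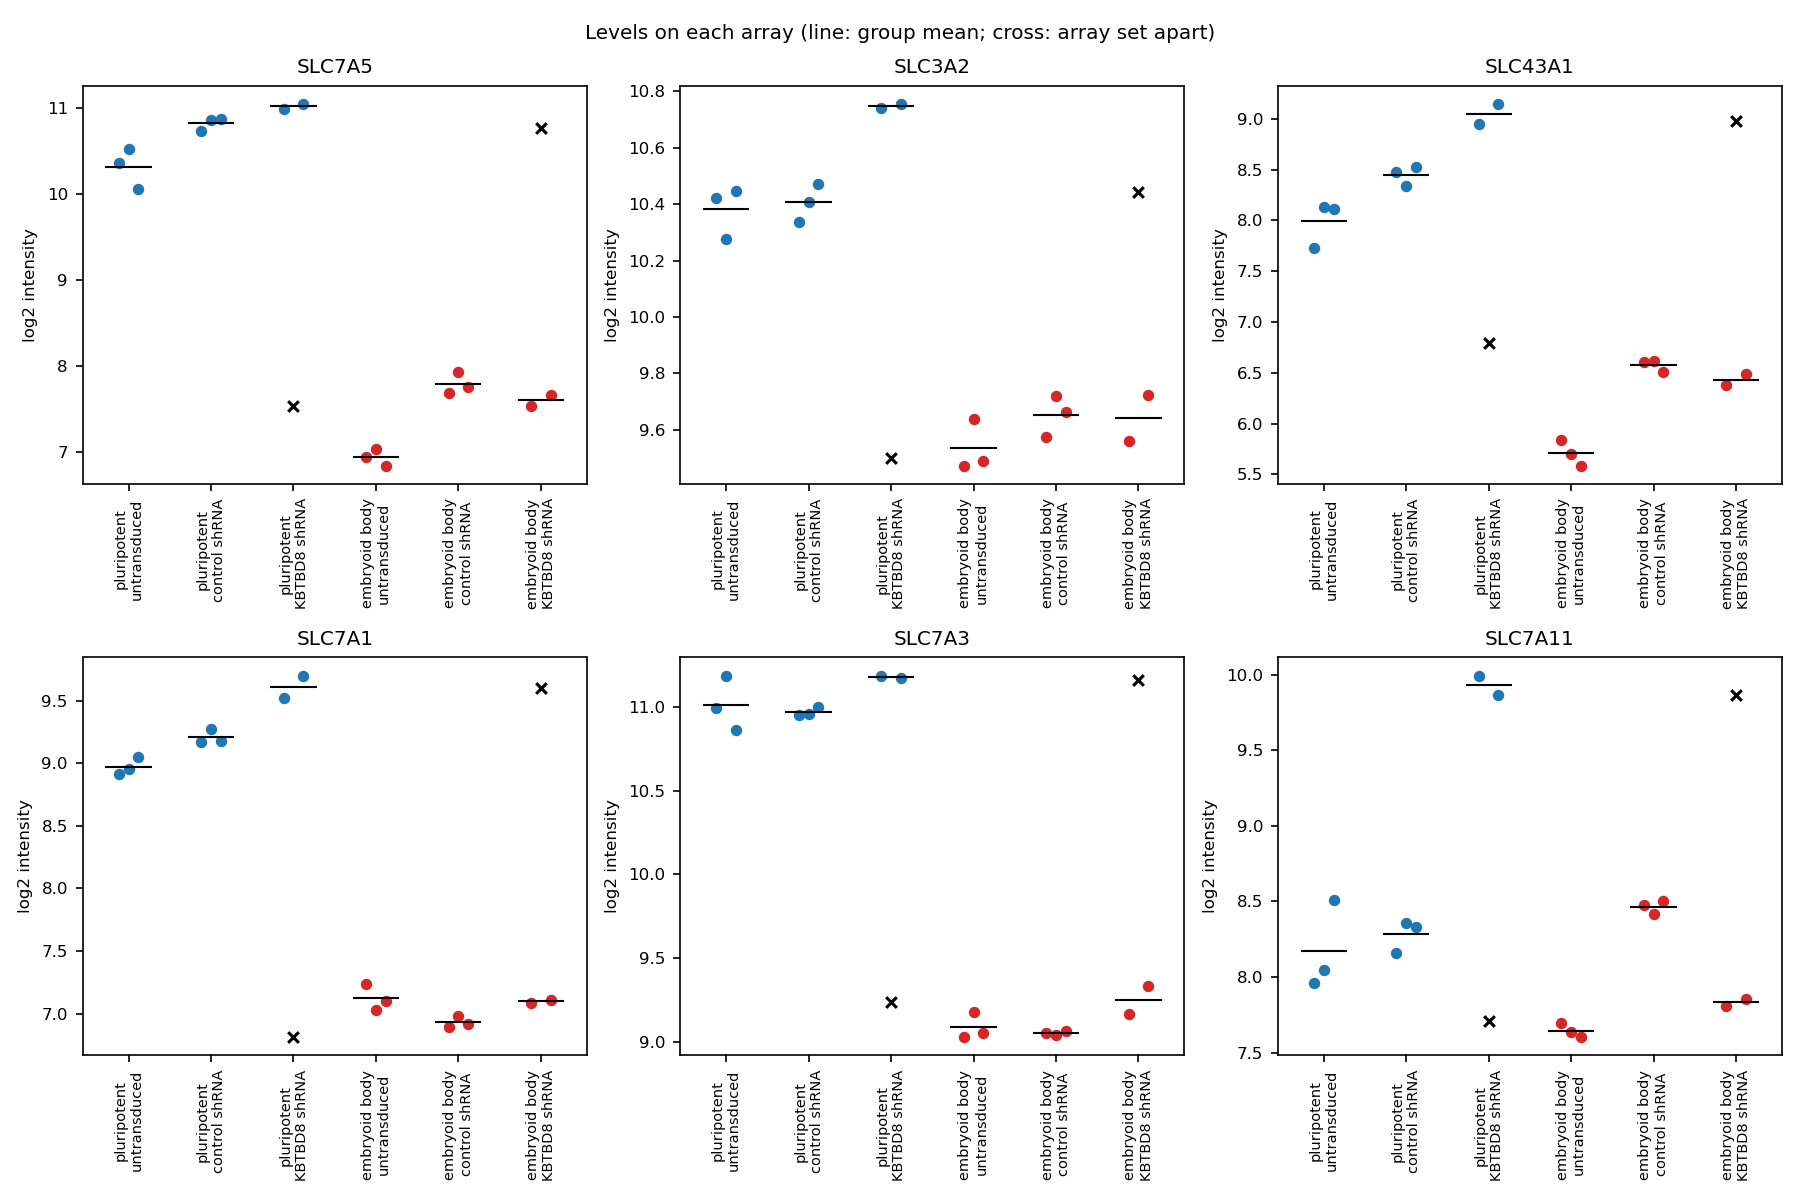
Log2 intensity (vertical axis, a separate scale for each gene) on every array of the 6 groups for SLC7A5, SLC3A2, SLC43A1, SLC7A1, SLC7A3 and SLC7A11, with the group mean (line), pluripotent arrays in blue, embryoid body arrays in red and the 2 arrays set apart as crosses. For SLC7A5 every blue point lies above every red point, whereas for SLC7A11 the pluripotent KBTBD8 shRNA points, 9.99 and 9.86, and the cross in the embryoid body KBTBD8 shRNA column, 9.87, stand above all other points.

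In the SLC1A family, SLC1A5, or ASCT2, which exchanges glutamine and other neutral amino acids, read 9.53, 9.91 and 9.54 in untransduced pluripotent cells and 8.58, 8.58 and 8.69 in embryoid bodies. It read 9.77, 10.00 and 9.99 against 8.85, 8.72 and 8.91 with control shRNA, 10.12 and 10.25 against 8.38 and 8.58 with KBTBD8 shRNA, and 8.58 and 10.16 on the pluripotent and embryoid body arrays set apart. SLC1A5 was lower in embryoid bodies on every array of the main results, with differences of −1.05 ± 0.11, −1.09 ± 0.11 and −1.71 ± 0.13, and its other probe set also averaged lower in embryoid bodies under each treatment. SLC1A3, a glutamate and aspartate carrier, read 8.58, 7.50 and 7.55 against 6.47, 6.09 and 6.29 untransduced, 7.56, 7.78 and 7.85 against 6.76, 6.60 and 6.67 with control shRNA, and 7.23 and 7.46 against 5.72 and 6.05 with KBTBD8 shRNA. The first of these pluripotent arrays was the highest of all, and the states did not overlap. SLC1A3 differed by −1.59 ± 0.21, −1.06 ± 0.21 and −1.46 ± 0.26, and read 5.86 and 7.65 on the arrays set apart. SLC1A1, a carrier of glutamate and cysteine, fell by 0.90 in untransduced cells and by 0.52 with control shRNA and did not pass with KBTBD8 shRNA (−0.29), and exceeded the 40th percentile on 8 of 8 pluripotent and 1 of 8 embryoid body arrays. SLC1A6, another glutamate carrier, was higher in untransduced embryoid bodies (0.48) and passed under neither shRNA.

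The sodium-coupled SLC38A carriers divided. SLC38A4, which takes up alanine and other neutral amino acids, read 7.42, 6.72 and 6.82 in untransduced pluripotent cells and 4.72, 4.96 and 4.85 in embryoid bodies. It read 7.21, 7.48 and 7.31 against 5.18, 5.43 and 5.31 with control shRNA and 6.78 and 7.18 against 5.51 and 5.23 with KBTBD8 shRNA, so that the states did not overlap. The differences were −2.14 ± 0.16, −2.02 ± 0.16 and −1.61 ± 0.20. SLC38A4 exceeded the 40th percentile on all 8 pluripotent arrays of the main results and on 0 of the 8 embryoid body arrays. It passed the filter only through the state where it is high, and these differences are measured against the low range. On the pluripotent and embryoid body arrays set apart it read 5.42 and 7.12. SLC38A5, which carries glutamine, asparagine and histidine, read 7.53, 7.26 and 7.04 against 5.99, 6.20 and 5.79 untransduced, 7.98, 8.18 and 8.29 against 6.34, 5.96 and 5.96 with control shRNA, 7.47 and 7.60 against 5.97 and 6.31 with KBTBD8 shRNA, and 6.42 and 7.39 on the arrays set apart. SLC38A5 fell by 1.29, 2.06 and 1.40.

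SLC38A1 and SLC38A2, the widely expressed glutamine and alanine carriers, fell by 0.66 to 0.98 and by 0.56 to 0.74 over the treatments, with no overlap of the states. SLC38A3, a glutamine carrier of the same sodium-coupled type, rose by 0.95, 0.44 and 0.84. SLC38A9, the lysosomal arginine sensor that reports to mTORC1, read 7.52, 6.89 and 7.01 against 7.07, 7.07 and 7.20 in untransduced pluripotent cells and embryoid bodies, which overlapped. With control shRNA it read 7.15, 7.38 and 7.41 against 6.70, 6.64 and 6.70, and with KBTBD8 shRNA 7.91 and 7.80 against 6.47 and 6.90, with 6.36 and 7.76 on the arrays set apart. Its differences were −0.03 ± 0.14, which did not pass, −0.64 ± 0.14 and −1.17 ± 0.17, which did. Of the SLC36A carriers, the proton-coupled SLC36A1 fell by 0.69 untransduced and by 0.34 with control shRNA, and SLC36A4 had differences between 0.12 and 0.19, none past the threshold.

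Among genes of the pathway outside these families, the lists stand beside the members as counts. Of all genes tested, 26.3% fell and 25.8% rose in untransduced cells. The shares were 25.2% and 23.1% with control shRNA, and 21.1% and 17.3% with KBTBD8 shRNA. Of 21 tested carriers from other families, 12 fell and 1 rose in untransduced cells, among them SLC6A6, the taurine carrier, at −1.72. The counts were also 12 and 1 with control shRNA, and 8 and 1 with KBTBD8 shRNA. Of 29 tested genes of the ATF4 list, which holds ATF4 and known targets that are not carriers, 20 fell and 1 rose in untransduced cells (median −0.90), 15 fell and 6 rose with control shRNA (median −0.36) and 22 fell and 2 rose with KBTBD8 shRNA (median −1.29). INHBE, a stress-induced inhibin subunit, differed by −2.87 in untransduced cells and CHAC1, which degrades glutathione, by −2.13. On 18 arrays as labelled 0 passed in this last comparison (limma), as for all genes, with 3 at an unadjusted p under 0.05 and a median of −0.44.

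Under KBTBD8 shRNA the pluripotent cells showed a rise in a small group of carriers, led by SLC7A11. Against control shRNA, 8 of the 32 tested members passed in pluripotent cells, 6 higher and 2 lower, where 14.0% of all genes did, 8.43% higher and 5.58% lower. The median member differed by 0.04 and the median gene by −0.01. Quantile normalization gave 6 higher and 4 lower. SLC7A11 was 3.13-fold higher, 1.65 ± 0.13 on the log2 scale (adjusted p = 1.1e-06 in limma), the 16th largest increase of all genes tested. Its 2 arrays did not overlap the 3 control ones. That was so for 21 of the 32 tested members, and the share over all genes was not counted. The other increases were SLC1A4 (0.84), SLC43A1 (0.60), SLC38A9 (0.54), SLC7A1 (0.40) and SLC3A2 (0.34). The decreases were SLC38A5 (−0.61) and SLC7A8 (−0.34). SLC7A5 had 0.19 and did not pass (adjusted p = 0.32).

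The calls depended on which arrays were included. With all 18 arrays as labelled, 2 members passed, SLC7A8 at −0.50 and SLC38A12, formerly TMEM104, at −0.57, both lower. SLC7A11 then stood at 0.90 (limma, adjusted p = 0.38) and SLC1A4 at 0.55 (adjusted p = 0.24), and SLC3A2, SLC43A1 and SLC7A1 turned to −0.07, −0.15 and −0.53. Leaving out pluripotent KBTBD8 shRNA array 1 left 4 calls, leaving out its array 3 left 2, and leaving out pluripotent control shRNA array 2 left 5. SLC7A11 and SLC1A4 passed in each of the fits that left out 1 of the 16 arrays. SLC1A4 read 5.33 to 5.51 on the pluripotent control shRNA arrays, and the 40th percentile of the arrays lay between 5.26 and 5.59. Its increase is thus measured against the low range.

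The ATF4 list moved in the same comparison. Of its 29 tested genes 25 passed in pluripotent cells under KBTBD8 shRNA, all higher, with a median of 0.85. Of all genes tested 14.0% passed there, 8.43% higher. In the list 27 had an unadjusted p under 0.05 in limma. INHBE rose by 2.67, DDIT3, a stress-induced transcription factor also called CHOP, by 1.94, CHAC1 by 1.78 and TRIB3, a pseudokinase induced by ATF4, by 1.72. ATF4 itself had −0.24 and did not pass (limma, adjusted p = 0.072). On 18 arrays as labelled 6 passed, all higher, with a median of 0.48. Leaving out 1 of the 16 arrays at a time left 18 to 26 higher. The control arrays of this comparison were themselves lower than untransduced cells for 11 of the 29 and higher for 2. Of all genes tested 12.1% were lower there and 17.0% higher. Among the other lists, SLC6A9, a glycine carrier, rose by 0.74 and SLC6A6 fell by 0.44, the only calls among 21 other carriers. SESN2, the leucine sensor upstream of mTORC1, rose by 0.99 and CASTOR1, an arginine sensor, by 0.65, while SEC13 and SEH1L, which belong to the GATOR complex upstream of mTORC1, differed by −0.46 and −0.45.

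In embryoid bodies, 3 of 32 tested members passed between KBTBD8 and control shRNA, 2 higher and 1 lower, where 5.80% of all genes passed, 2.84% higher and 2.96% lower. The median member differed by 0.05 and the median gene by 0.00. SLC7A11 was lower by 0.63 (limma, adjusted p = 0.0054), and its arrays did not overlap. That was so for 17 of the 32 tested members, and the share over all genes was not counted. SLC38A3 was higher by 0.49 and SLC7A8 by 0.45. On 18 arrays as labelled SLC7A11 stood at 0.05, SLC38A3 at 0.14 and SLC7A8 at 0.56, and SLC7A8 passed (limma, adjusted p = 0.029). Leaving out embryoid body KBTBD8 shRNA array 1 or array 3 left 1 call each, and leaving out untransduced pluripotent array 1 or 2, which enter only through the shared spread, gave 5. SLC7A11 lost its call only without embryoid body KBTBD8 shRNA array 1. No gene of the ATF4 list passed here in limma, and 3 of its 29 had an unadjusted p under 0.05.

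**Figure D4:**
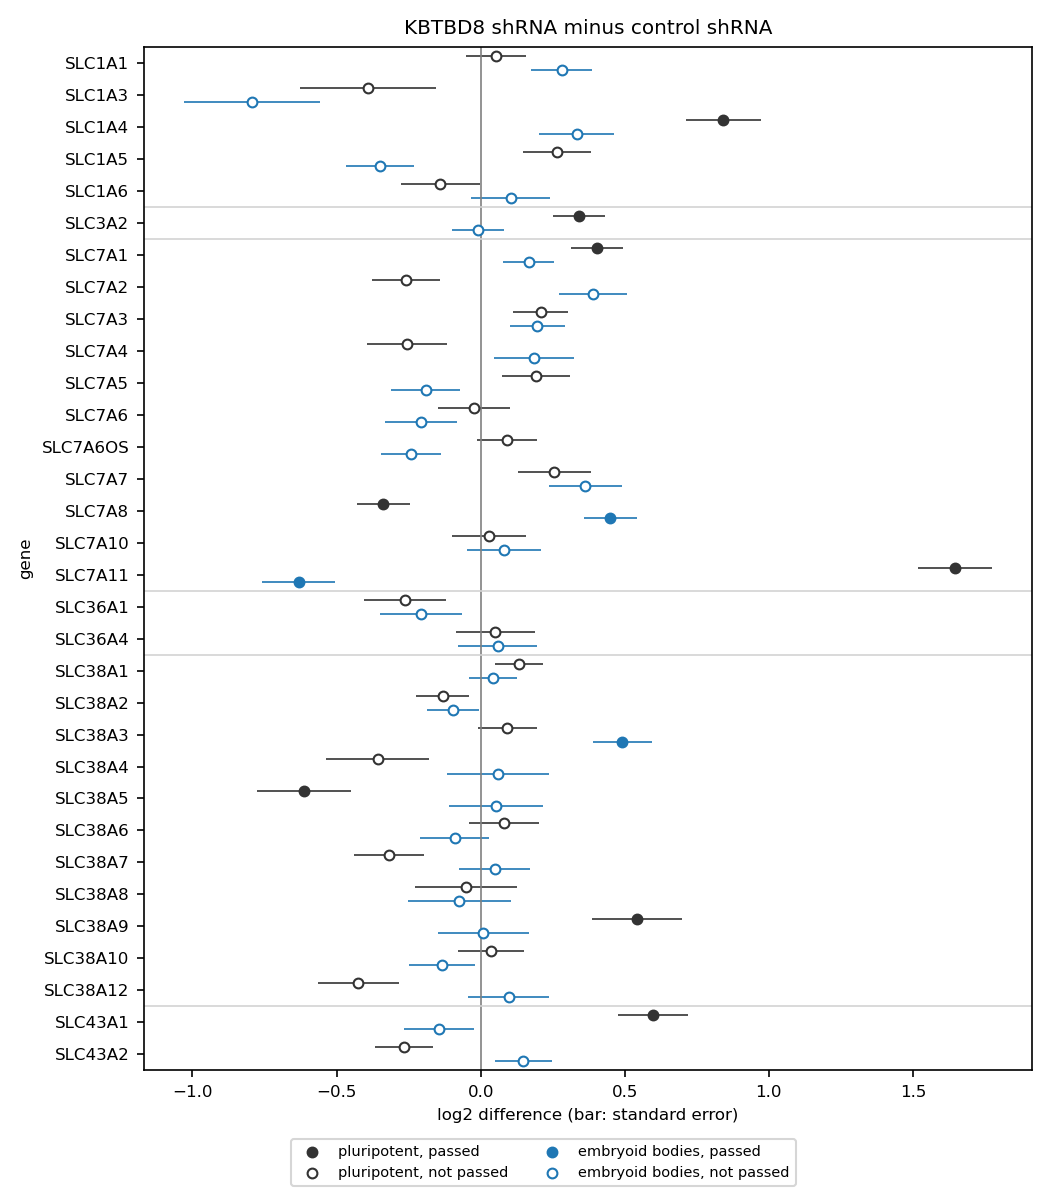
Log2 difference of KBTBD8 shRNA minus control shRNA for each tested member (rows), with its standard error (bar) and filled where the adjusted p was under 0.05, in pluripotent cells (black) and embryoid bodies (blue), from 2 KBTBD8 shRNA and 3 control shRNA arrays per state. SLC7A11 lies at 1.65 in pluripotent cells and at −0.63 in embryoid bodies, and SLC7A8 lies on opposite sides of 0 in the reverse order.

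The difference of the shRNA effect between the states was tested as an interaction, written as the effect in embryoid bodies minus that in pluripotent cells. It passed for 5 of 32 tested members, 2 higher and 3 lower, where 9.87% of all genes passed, 3.74% higher and 6.12% lower. Quantile normalization gave 5 higher and 4 lower. SLC7A11 had −2.28 ± 0.18 (limma, adjusted p = 1.5e-06), the 17th lowest value of all genes, SLC43A1 −0.74 ± 0.17 and SLC1A5 −0.61 ± 0.17. SLC7A8 had 0.79 ± 0.13 and SLC7A2 0.65 ± 0.17. On 18 arrays as labelled these values were −0.86, 0.86, 0.48, 1.06 and 0.84 in that order, of which SLC43A1 and SLC1A5 changed sign and SLC7A8 and SLC7A2 passed. In embryoid bodies the array means of 6 neural crest markers were also lower under KBTBD8 shRNA, at 7.03 to 7.21, than under control shRNA, at 9.16 to 9.29. The array means of endoderm and yolk sac markers were lower too, at 5.31 to 5.52 against 6.93 to 7.08. There AFP, APOA2 and TTR were lower, while FOXA2 (5.90 against 5.85) and SOX17 (5.73 against 5.63) were not. The array means of neural plate markers were higher, at 8.52 to 8.80 against 7.81 to 7.85. Among them SIX3, LHX2 and DACH1 were higher, whereas PAX6 (9.07 against 9.62) and EMX2 (6.983 against 7.785) were lower. In pluripotent cells endoderm and yolk sac markers stood at 5.42 to 5.45 against 6.12 to 6.36. The part of these markers' cells in the KBTBD8 shRNA results was not tested.

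Several carriers also differed between cells with the control lentivirus and untransduced cells. In pluripotent cells 7 of 32 tested members passed between control shRNA and untransduced cells, all higher with control shRNA, where 29.1% of all genes passed, 17.0% higher and 12.1% lower. Quantile normalization gave 8 higher and 1 lower. The 7 were SLC38A5 (0.87), SLC7A8 (0.62), SLC7A7 (0.51), SLC7A5 (0.51), SLC7A2 (0.50), SLC43A1 (0.45) and SLC7A1 (0.24). The median member differed by 0.12 and the median gene by 0.04. Endoderm and yolk sac markers were also higher, at 6.12 to 6.36 against 5.01 to 5.08, and their part was not tested. Without untransduced pluripotent array 1 the count was 11, and on 18 arrays, where the spread is larger, it was 2.

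In embryoid bodies 16 of 32 tested members passed between control shRNA and untransduced cells, 9 higher and 7 lower, where 44.8% of all genes passed, 24.6% higher and 20.2% lower. SLC43A1 (0.87), SLC7A5 (0.85) and SLC7A11 (0.82) had the largest increases, and SLC1A4 (−0.77), SLC38A3 (−0.69) and SLC43A2 (−0.44) the largest decreases. Their arrays did not overlap, which was so for 25 of the 32 tested members, and the share over all genes was not counted. The split rested on scaling: centring each array on its median moved the median of all genes by −0.12 and gave 4 higher and 9 lower, and quantile normalization gave 7 and 8. Without untransduced embryoid body array 3 the count was 10, and on 18 arrays it was 5. The ATF4 list had 14 higher and 2 lower genes, and GAD1, which makes GABA from glutamate, rose by 1.80. The array means of the neural crest markers were 9.16 to 9.29 with control shRNA and 5.54 to 5.72 without lentivirus. Those of endoderm and yolk sac were 6.93 to 7.08 and 4.80 to 4.96, those of pluripotency 8.54 to 8.57 and 7.25 to 7.43, and those of the neural plate 7.81 to 7.85 and 9.19 to 9.24. Of the neural plate markers EMX2 went the other way, at 7.785 with control shRNA and 6.913 without lentivirus. The part of these markers' cells in the carrier differences was not tested.

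**Figure D5:**
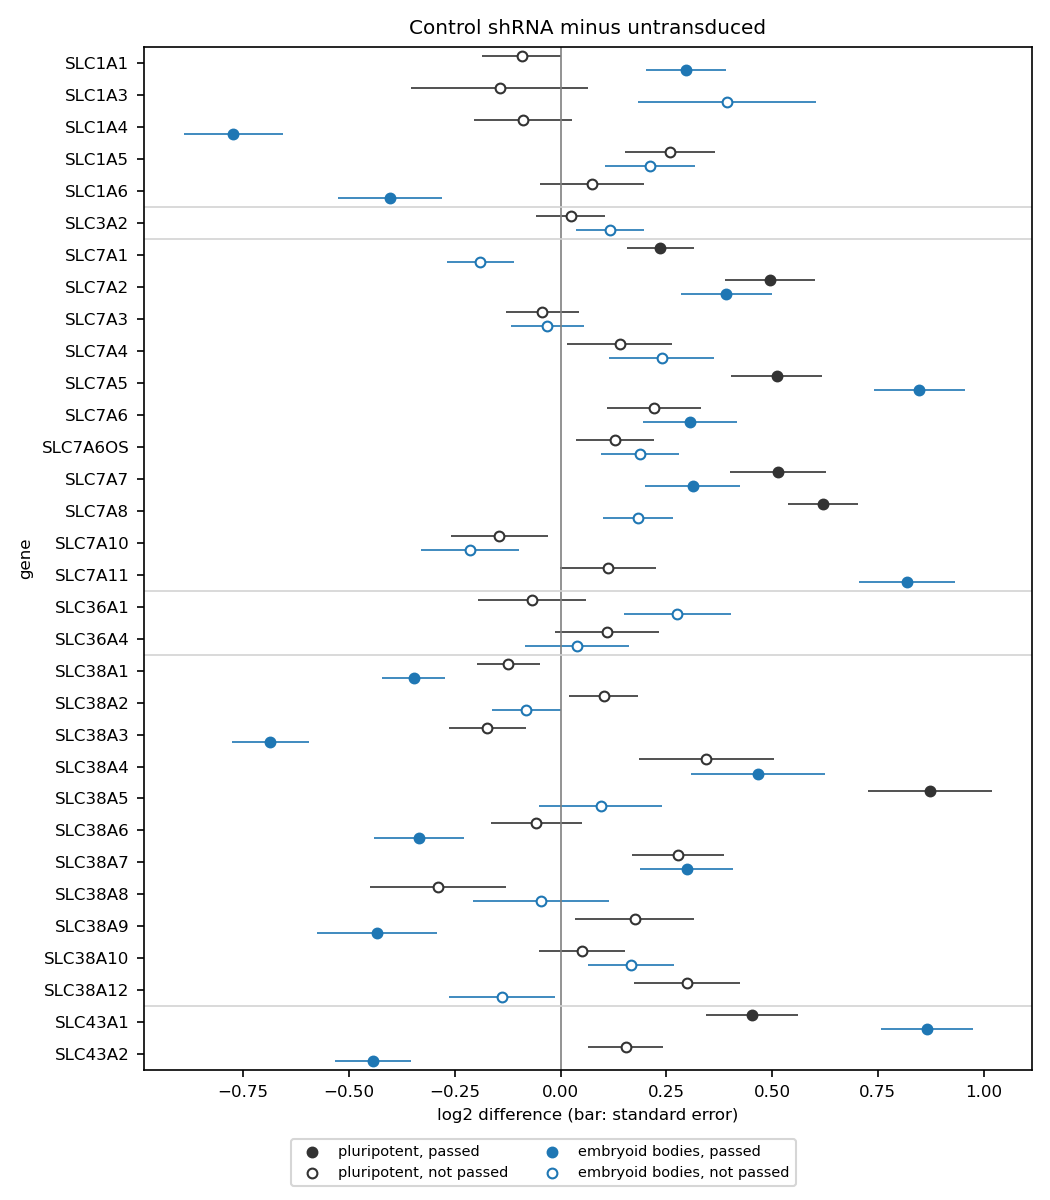
Log2 difference of control shRNA minus untransduced cells for each tested member (rows), with its standard error (bar) and filled where the adjusted p was under 0.05, in pluripotent cells (black) and embryoid bodies (blue), 3 arrays per group. Filled black points all lie right of 0, the farthest being SLC38A5 at 0.87, whereas filled blue points lie on both sides, from −0.77 for SLC1A4 to 0.87 for SLC43A1.

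The interaction of control shRNA with state passed for 8 of 32 tested members, 1 higher and 7 lower, where 16.9% of all genes passed, 8.26% higher and 8.61% lower. SLC7A11 was the higher one (0.71 ± 0.16). SLC38A5 (−0.78), SLC1A4 (−0.68), SLC38A9 (−0.61), SLC43A2 (−0.60), SLC38A3 (−0.51), SLC7A8 (−0.44) and SLC7A1 (−0.43) were lower. This contrast and the KBTBD8 interaction share the control shRNA arrays, so opposite signs such as those of SLC7A11 and SLC7A8 are not independent of each other. SLC7A3 and SLC3A2 passed in neither interaction and in neither comparison of control shRNA with untransduced cells.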

How the data were processed

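The deposited values are log2 intensities. Per the submitters' processing notes, GCRMA of an unnamed version was used to make them. Their log base was taken from the method and the range of the values, and whether the 18 arrays were normalized together is not given in the sources used here. Raw array files were not analysed here. Of 33297 probe sets, 19460 carried 1 gene symbol, 1754 several and 12083 none, and names came from the platform annotation brought up to date with RefSeq (GRCh38.p14), where 28 genes had no entry and every member had one. The probe set with the highest mean over 18 arrays stood for its gene.

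The model, in limma 3.58.1 (R 4.3.3), had a mean for each of the 6 groups on 16 arrays and empirical Bayes variances, and the Benjamini-Hochberg adjustment ran over all 14209 tested genes of a comparison. A verb such as rose or fell means an adjusted p under 0.05. After ± beside a difference stands its standard error. The fit was tested on simulated data. Values on every array are given for members that passed with a difference of 1 or more in a comparison, and for SLC3A2 and SLC7A5. The other tested members are given by differences, ranges or counts. SLC38A6, SLC38A7, SLC38A10 and SLC38A12 enter the main results only through the counts. Replicate numbers were checked for pairing: over 36 same-numbered pairs the correlations of deviations from the group means ran from −0.377 to 0.433. They were 0.384 and 0.359 between pluripotent control and KBTBD8 shRNA arrays, and 0.433 and 0.404 between pluripotent control and embryoid body KBTBD8 shRNA arrays. Between untransduced and control shRNA pluripotent arrays they ran from −0.377 to −0.082. The numbers were not used as pairs in the main model, and a batch shared by some groups was not tested. The members and lists were chosen with earlier results of these data known. Alternatives covered all 18 arrays, a replicate block, only the groups compared, filters, normalization, probe set choice, variance model and leaving out each array. The number of arrays limits the precision.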

Additional observations from a re-analysis of the deposited data

Results flagged for a closer look

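The effect of KBTBD8 shRNA differed between embryoid bodies and pluripotent cells, by the interaction test in limma, for SLC7A11 (−2.28), SLC43A1 (−0.74), SLC1A5 (−0.61), SLC7A8 (0.79) and SLC7A2 (0.65), each given as the effect in embryoid bodies minus that in pluripotent cells. SLC7A11 and SLC7A8 moved in opposite directions in the states, each past the threshold in both. Without embryoid body KBTBD8 shRNA array 1, or without pluripotent KBTBD8 shRNA array 3, 2 of these 5 calls were left.

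The effect of the control lentivirus differed between the states for SLC7A11 (0.71), SLC38A5 (−0.78), SLC1A4 (−0.68), SLC38A9 (−0.61), SLC43A2 (−0.60), SLC38A3 (−0.51), SLC7A8 (−0.44) and SLC7A1 (−0.43). SLC38A9, SLC43A2 and SLC7A1 pointed opposite ways in the states, but SLC38A9 and SLC43A2 passed only in embryoid bodies and SLC7A1 only in pluripotent cells.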

How the results depend on the processing

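Of 113 calls on members over the 9 contrasts, 108 remained with the replicate block, 108 with only the groups compared, 109 without the filter, 105 under quantile normalization, 105 under median centring, 113 with the mean of probe sets and 110 with a trended robust variance. Under the stricter filter at the 60th percentile 95 of the 95 calls still tested remained. Including both doubtful arrays as labelled had the largest effect: 46 remained, 61 were lost and 6 reversed. The reversed values were, for KBTBD8 shRNA in pluripotent cells, −0.074 for SLC3A2, −0.154 for SLC43A1 and −0.529 for SLC7A1, in embryoid bodies 0.046 for SLC7A11, and in the interaction 0.481 for SLC1A5 and 0.857 for SLC43A1. On these 18 arrays 0 members passed for differentiation under KBTBD8 shRNA (limma, 0 at an unadjusted p under 0.05), 2 for KBTBD8 shRNA in pluripotent cells, 2 for control shRNA in pluripotent cells, 5 in embryoid bodies, 2 for the KBTBD8 interaction and 0 for the control interaction (limma, 4 at an unadjusted p under 0.05). Quantile normalization gave 5 calls for KBTBD8 shRNA in embryoid bodies and 9 for its interaction, from 3 and 5. Leaving out each array in turn gave 23 to 26 calls for differentiation untransduced, 20 to 21 with control shRNA and 18 to 21 with KBTBD8 shRNA, 2 to 9 and 1 to 5 for KBTBD8 shRNA in pluripotent cells and embryoid bodies, 6 to 11 and 10 to 18 for control shRNA, and 2 to 6 and 7 to 10 for the KBTBD8 and control interactions. The replicate block, on numbers whose meaning the labels do not give, moved no count of member calls by over 1.5 times. Its counts were 24, 20 and 19 for differentiation, 7 and 3 for KBTBD8 shRNA, 7 and 16 for control shRNA, and 5 and 7 for the interactions. It gave KBTBD8 −1.68 in pluripotent cells under its shRNA. With 2 arrays in each KBTBD8 shRNA group, a lone array left after leaving out the other is assumed to vary like the other groups. The cause of these changes was not tested.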

Other observations

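Other lists of amino acid metabolism were counted for differentiation, where 52.2%, 48.3% and 38.5% of all genes passed in untransduced, control shRNA and KBTBD8 shRNA cells. Of 21 tested enzymes of glutamine, glutamate and glutathione metabolism, 10 fell and 2 rose in untransduced embryoid bodies, 10 fell and 4 rose with control shRNA, and 7 fell and 4 rose with KBTBD8 shRNA. GCLM, the regulatory subunit of the enzyme that starts glutathione synthesis, differed by −1.16, −1.58 and −1.56, and CHAC2, which degrades glutathione, by −1.16, −1.21 and −1.32. GAD1 differed by −0.13 in untransduced cells, which did not pass, by 1.53 with control shRNA and by 2.09 with KBTBD8 shRNA. GAD2, the other enzyme that makes GABA from glutamate, was 1.46 higher with KBTBD8 shRNA than with control shRNA in embryoid bodies (limma, adjusted p = 6.8e-04).

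Genes of amino acid sensing by mTORC1 showed no common direction. Of 33 tested, 7 rose and 7 fell in untransduced embryoid bodies, 10 rose and 6 fell with control shRNA, and 9 rose and 3 fell with KBTBD8 shRNA. SESN3, a sestrin, rose by 1.28, 2.87 and 2.13, and RRAGB, a Rag GTPase, by 1.29, 1.22 and 0.79. RRAGA, its close relative, was lower with control shRNA than in untransduced cells, by −0.77 in pluripotent cells and −1.08 in embryoid bodies.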
